A study of Mus musculus with 9 samples.

Results

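The mitochondrial ribosomal protein genes were the 76 genes, of 18193 measured, whose only symbol on the array platform began with Mrpl or Mrps and a digit. By symbol, 47 of them belong to the large subunit (Mrpl) and 29 to the small subunit (Mrps). They were read by 156 probe sets, with 34 genes on 1 probe set and 42 on several. Each gene was represented by its brightest probe set, judged by the mean of the 9 arrays, and the other 80 probe sets served as a check. No filter on dim genes was applied, so all 76 genes entered the comparison.

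The arrays held left ventricular RNA of male C57BL/6 mice taken 6 weeks after sham surgery (n = 5) or after transaortic constriction (TAC, n = 4), an operation that narrows the aorta so that the left ventricle pumps against a raised pressure. The labels name no altered allele and no drug for either group, and the sources used here do not give the age of the mice. The deposited values were RMA values, which are log2 signals brought by the normalization to the same distribution on every array, with a median of 6.5661. A difference is therefore a shift relative to the other genes of the array, not an absolute amount of RNA. The 10 cardiomyocyte markers examined, such as Myh6, Tnnt2 and Ttn, had a median signal of 14.41, near the highest value of any probe set, 14.80. Their mean was 14.28 to 14.32 in the sham arrays and 14.22 to 14.25 in the TAC arrays, so every TAC array lay slightly below every sham array. Cardiomyocyte transcripts gave strong signals in both groups.

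The mitochondrial ribosome translates the few messenger RNAs encoded by mitochondrial DNA, and in mammals all of these encode subunits of the respiratory chain and the ATP synthase. Its ribosomal RNAs come from mitochondrial DNA, whereas all of its proteins are encoded in the nucleus, made in the cytosol and imported. Many have a counterpart in the bacterial ribosome, and others occur in mitochondrial ribosomes alone. Heart muscle is rich in mitochondria, since the beating heart takes most of its ATP from the respiratory chain.

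Transcripts of the mitochondrial ribosomal proteins were lower after TAC in 34 of the 76 genes and higher in 0 (limma, Benjamini-Hochberg adjusted p below 0.05 over all genes tested). Among all 18193 genes, 25.1% were called either way, 12.3% lower and 12.8% higher, against 44.7% of these genes called, all of them lower. At an unadjusted p below 0.05, 43 of the 76 were lower and 2 were higher. The difference, TAC minus sham, was below 0 in 64 of 76 genes, with a median of -0.16 on the log2 scale, and the median over all genes tested was -0.0038. Differences ran from -0.80 for Mrpl14 to 0.17 for Mrpl33. Centring each array on its median, which put the median of all genes at -0.05, gave 16% of all genes lower and 10.9% higher, and 44 members lower and 0 higher. The changes were small, with a largest decrease of 1.75-fold, and no member was called when the test asked for a change beyond 1.5-fold.

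**Figure D1:**
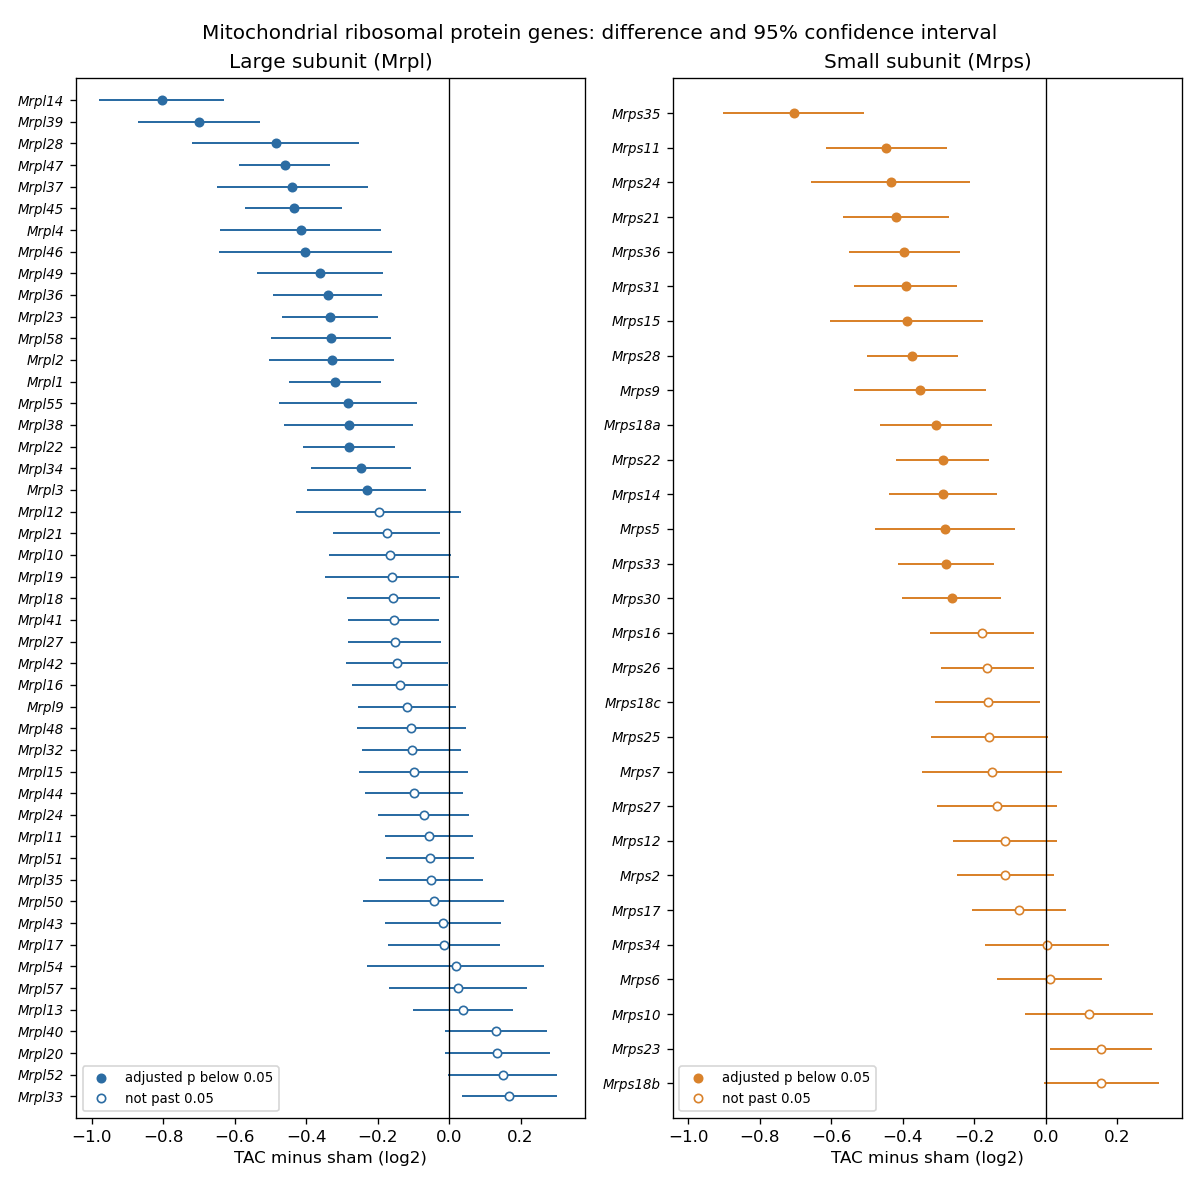
TAC minus sham difference (log2) of each of the 47 Mrpl genes (left) and 29 Mrps genes (right), with the 95% confidence interval of the limma fit and filled points for an adjusted p below 0.05. Filled points lie to the left of 0 only, from -0.80 for Mrpl14 to -0.23 for Mrpl3, and the 12 points to the right of 0 are open.

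These probe sets were bright, and bright genes were called more often, since 6.12% of genes with a mean signal up to 8 were lower. Of the 7825 other genes whose signal lay between those of the dimmest and brightest member (8.17 to 13.66), 19.5% were lower and 17.6% higher, with a median difference of -0.026. Between the quartiles of the members' signals (10.55 to 11.99), 20.8% of 1988 other genes were lower, with a median of -0.033. The members' share of lower calls was above both values, but no test of a gene list was made.

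In 35 of the 76 genes all 4 TAC arrays lay below all 5 sham arrays, and in 2, Mrpl33 and Mrpl40, all lay above. Over all genes tested such separation was seen in 12.2% downward and 13% upward. The mean over the 76 genes was 11.42, 11.28, 11.39, 11.45 and 11.43 in the sham arrays and 11.21, 11.18, 11.13 and 11.24 in the TAC arrays. Sham replicate 2 was the lowest sham array in 56 of the 76 genes and TAC replicate 3 the lowest TAC array in 48, so the same arrays were low in many genes. Leaving out each array in turn gave between 28 genes called lower, without TAC replicate 3, and 39, without sham replicate 2. Leaving out both of these arrays, an alternative chosen after seeing the data, gave 33. Higher calls were 0 in each of those fits.

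**Figure D2:**
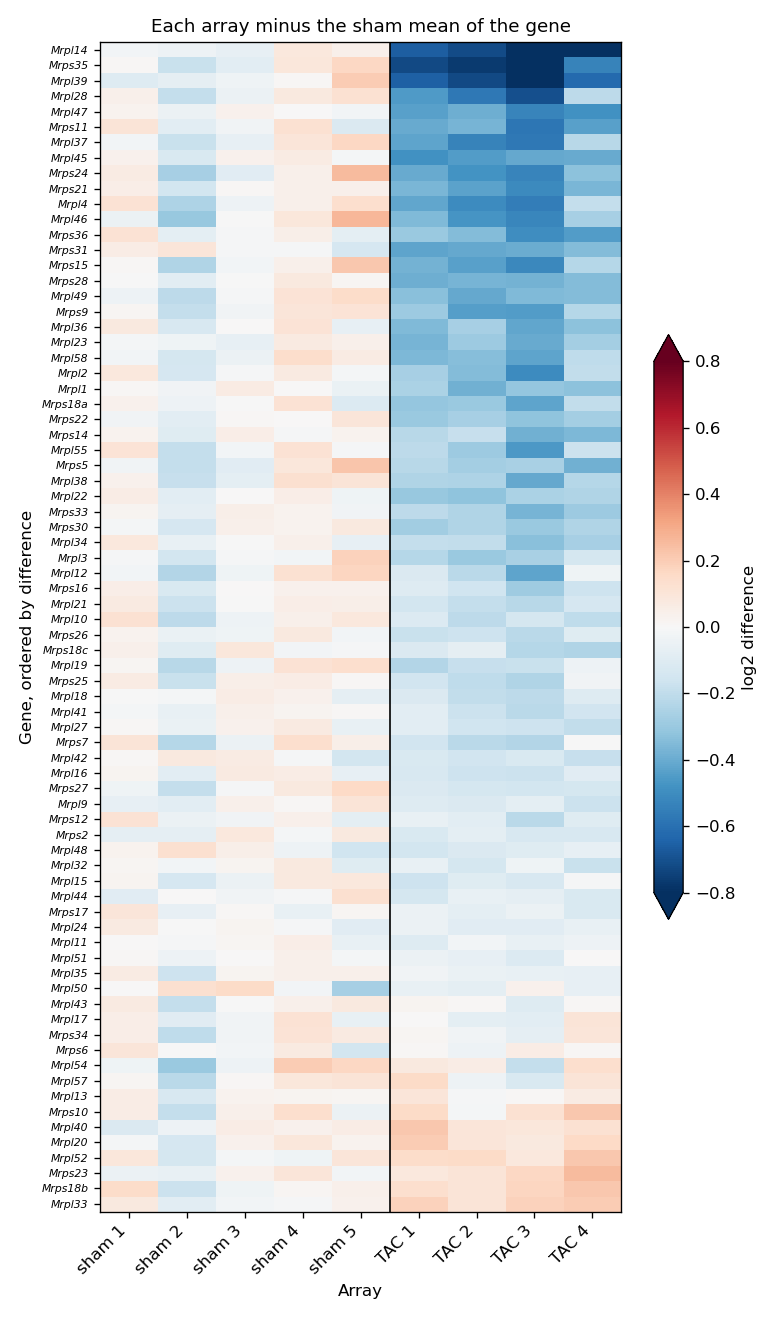
Each array minus the gene's sham mean (log2) for all 76 genes, ordered by the TAC minus sham difference, with the 5 sham arrays left of the line and the 4 TAC arrays right of it. Colours stop at 0.8 in either direction. The upper rows are blue in all 4 TAC arrays, the column of sham replicate 2 is paler blue through most rows, and the lowest rows, down to Mrpl33, are pale red in the TAC arrays.

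Many markers of fibroblasts and macrophages rose, where 12.8% of all genes tested were called higher and 12.3% lower. Among fibroblast markers 5 of 8 rose, with means over the list of 10.96 to 11.12 in the sham and 11.41 to 11.74 in the TAC arrays, and among macrophage markers 8 of 9 rose, from 9.03 to 9.58 in the sham to 10.06 to 10.22 in the TAC arrays. Of the fibroblast genes, the collagen genes Col1a2 (1.28, adjusted p = 1.03e-05), Col1a1 (0.92, adjusted p = 2.05e-05) and Col3a1 (0.90, adjusted p = 8.99e-05) led with Lum (0.92, adjusted p = 0.000102), followed by Dcn (0.48, adjusted p = 0.00223). The other fibroblast markers, Pdgfra, Tcf21 and Dpt, were not called. The macrophage genes led with Adgre1 (0.97, adjusted p = 0.000139), C1qb (0.68, adjusted p = 0.000382), C1qa (0.70, adjusted p = 0.00166) and Cd14 (0.96, adjusted p = 0.00215). Of 10 cardiomyocyte markers 1 fell (10%), Tnni3 by 0.16 (adjusted p = 0.0475), and of 8 endothelial markers 1 fell (12.5%), Kdr by 0.25 (adjusted p = 0.0284). Both shares were near the 12.3% of all genes called lower. Of genes with a mean signal above 13, 18% were lower, and the cardiomyocyte markers had a median signal of 14.41. Their list mean was 14.28 to 14.32 in the sham and 14.22 to 14.25 in the TAC arrays, without overlap. Smooth muscle markers were split, with Tagln (0.53) and Pdgfrb (0.25) higher and Acta2 (-0.53) and Myh11 (-0.59) lower among 6. In whole tissue, fewer cells of a type and less RNA per cell cannot be told apart, and the part of these markers in the members' differences was not tested.

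Genes of both subunits fell, where 12.3% of all genes tested were called lower and 12.8% higher. Among other genes in the members' range of signal 19.5% were lower. Of the 47 Mrpl genes 19 fell (40.4%), with a median difference of -0.16, and of the 29 Mrps genes 15 fell (51.7%), with a median of -0.26. The products of 2 Mrps genes, Mrps30 and Mrps18a, sit in the large subunit of the mammalian mitochondrial ribosome. Counted by place, 21 of 49 large subunit genes (42.9%) and 13 of 27 small subunit genes (48.1%) fell, with medians of -0.16 and -0.18. Mrps36, whose product has since been assigned to the alpha-ketoglutarate dehydrogenase complex, is still counted in the small subunit. Without it 12 of 26 small subunit genes by place fell (46.2%, median -0.17), a count added after the data were seen. The gap between the medians thus shrank when Mrps30 and Mrps18a, both called lower, were moved. The mean signal of the large subunit genes minus that of the small subunit genes was 0.08 to 0.12 in the sham arrays and 0.12 to 0.14 in the TAC arrays by symbol, without overlap. By place it was 0.13 to 0.17 in the sham arrays and 0.16 to 0.18 in the TAC arrays, with overlap, and this difference between the subunits was not tested.

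Genes with and without a bacterial counterpart were both among those that fell. The shares below stand beside 44.7% of all members and 12.3% of all genes tested called lower. Of 45 genes whose products have a counterpart in bacteria 20 fell (44.4%, median -0.17), and of 31 without one, Mrps36 included, 14 fell (45.2%, median -0.16). Without Mrps36 the latter count was 13 of 30 (43.3%, median -0.16). The genes without a counterpart include Mrps18a, which fell, and Mrps18b, which was not called. Both are relatives of a bacterial protein for which only Mrps18c was counted as the counterpart. Among the large subunit genes by place, 12 of 29 with a counterpart and 9 of 20 without one fell. Among the small subunit genes these counts were 8 of 16 and 5 of 11, or 4 of 10 without Mrps36.

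The regions before the transcription starts were read where RefSeq windows (mouse build GRCm38.p6, 250 bases before to 50 after a start) were at hand, which was the case for 67 of the 76 genes, with 73 windows. Factors known to act on genes of mitochondrial proteins include the ETS factor GABP, NRF1, YY1 and the estrogen-related receptors (ERR). Exact matches, on either strand, to CCGGAAG (ETS factors) were in 34.2% of the member windows, against 13% of 18006 windows of genes tested and 8.86% of all 32851 windows of the same length. Matches to GCGCATGC (NRF1) were in 11%, against 4.05% and 2.71%, and matches to AAGATGG (YY1) in 17.8%, against 6.39% and 6.34%. The ERR core motif AAGGTCA was in 5.48%, against 3.92% and 4.72%, the NF-Y motif CCAAT in 39.7%, against 37.4% in both sets, and the E-box CACGTG in 9.59%, against 8.74% and 7.15%. GCGCATGC matches can overlap on both strands, and CACGTG reads the same on both. The shares are of windows and not of genes, and overlapping windows of Mrpl2 count the same CACGTG more than once. The member windows had a median of 58.7% G or C and 21 CpG pairs, and the windows of genes tested had 58.3% and 16.

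Motif shares in members that fell and in members not called are set side by side here with no test. CCGGAAG was in 8 of 32 windows of genes that fell (25%) and 17 of 41 windows of genes not called (41.5%), and GCGCATGC in 2 (6.25%) and 6 (14.6%). AAGGTCA went the other way, with 3 of 32 (9.38%) and 1 of 41 (2.44%), as did CACGTG, with 5 (15.6%) and 2 (4.88%). AAGATGG was in 6 (18.8%) and 7 (17.1%), and CCAAT in 14 (43.8%) and 15 (36.6%). These are counts of windows, and overlapping windows of a gene repeat the same match. The single CACGTG of Mrpl2, which fell, was counted in each of its windows, from base -131, -139 or -147. Its CCAAT matches were repeated likewise, as was a CCAAT of Mrps16, which was not called. A match is a description of the letters and not evidence of a bound factor.

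The 250 bases before the start are shown for 3 genes that fell and 1 that did not, chosen after their values were seen because they hold the motifs above, and capitals mark the matches. Mrpl39 (chr16:84735245-84735494, minus strand) fell by 0.70 and has a CCAAT from base -223, counted with the start at 0, and overlapping GCGCATGC matches on both strands from bases -125 and -123. Mrps21 (chr3:95871515-95871764, minus strand) fell by 0.42 and has AAGGTCA on the minus strand of the gene from base -175 and on its plus strand from base -63. It also has CCGGAAG on the minus strand of the gene from base 18, which lies after the start and so outside the sequence shown. Mrps11 (chr7:78782881-78783130, plus strand) fell by 0.45 and has AAGATGG on the minus strand of the gene from base -106. The start of Mrpl46, which runs the other way and fell by 0.40, lies 42 bases from that of Mrps11, so the last bases of this sequence belong to both genes' promoters. Mrpl33 (chr5:31613701-31613950, plus strand) is shown for contrast as the gene with the highest difference (0.17, not called), with CCAAT from base -97, GCGCATGC from base -12 and a CCGGAAG match that starts at base -3 and runs past the end of the sequence, so that it is not in capitals.
Mrpl39: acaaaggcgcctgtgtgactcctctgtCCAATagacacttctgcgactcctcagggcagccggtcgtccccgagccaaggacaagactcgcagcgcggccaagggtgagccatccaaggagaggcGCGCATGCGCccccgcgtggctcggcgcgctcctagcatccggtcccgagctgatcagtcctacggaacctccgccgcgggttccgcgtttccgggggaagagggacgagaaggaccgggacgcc
Mrps21: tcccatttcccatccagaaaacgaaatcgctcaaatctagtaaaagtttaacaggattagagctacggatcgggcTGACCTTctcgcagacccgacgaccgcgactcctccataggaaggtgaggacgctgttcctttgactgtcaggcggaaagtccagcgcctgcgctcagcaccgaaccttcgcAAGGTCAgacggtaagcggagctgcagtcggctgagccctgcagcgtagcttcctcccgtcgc
Mrps11: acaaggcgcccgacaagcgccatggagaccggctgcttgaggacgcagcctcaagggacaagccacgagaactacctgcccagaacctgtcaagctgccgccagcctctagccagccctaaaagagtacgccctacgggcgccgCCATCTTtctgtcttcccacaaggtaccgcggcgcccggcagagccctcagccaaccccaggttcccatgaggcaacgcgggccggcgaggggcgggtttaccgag
Mrpl33: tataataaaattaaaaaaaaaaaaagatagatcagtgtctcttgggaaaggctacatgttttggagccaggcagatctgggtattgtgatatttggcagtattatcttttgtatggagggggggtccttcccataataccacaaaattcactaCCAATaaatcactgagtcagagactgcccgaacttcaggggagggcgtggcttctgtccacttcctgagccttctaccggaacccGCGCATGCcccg

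Shared promoter regions were frequent. Of the 67 genes with a window, 25 (37.3%) had another gene, tested or not, that starts within 1000 bases in the opposite direction. The share was 16.2% of the genes tested with a window, and these counts were added after the data were seen. The nearest neighbours of these 25 members were all tested, and 9 were lower after TAC and 16 were not called, where 12.3% of all genes were lower. Beside members that fell 5 of 9 neighbours were lower, and beside members not called 4 of 16 were, with no test made. The pairs described first were named after their values were seen. Mrpl46 and Mrps11 count as each other's neighbour. Since both are members that fell, both add to the lower neighbours beside members that fell, and no count without them was made. Mrpl14 starts 131 bases from Tmem63b (-0.56, adjusted p = 0.000431), Mrpl37 starts 128 bases from Cyb5rl (-0.35, adjusted p = 0.0165), and Mrpl55 starts 55 bases from 2610507I01Rik (-0.57, adjusted p = 0.00298), and all of these fell. Other pairs did not share a call, and all 8 of these are given. Mrpl47 fell while Ndufb5, whose start lies 308 bases away, was at -0.06 (adjusted p = 0.476), and Mrpl43 was at -0.02 while Twnk, the mitochondrial DNA helicase 116 bases away, fell by 0.52 (adjusted p = 0.00116). The other members that fell beside an uncalled neighbour were Mrpl2 (Klc4, 0.0032), Mrpl49 (Fau, -0.0056) and Mrps5 (Zfp661, -0.29, adjusted p = 0.0757). The other uncalled members beside a lower neighbour were Mrpl50 (Zfp189, -0.40), Mrps18b (Ppp1r10, -0.41) and Mrps27 (Ptcd2, -0.29).

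Among large subunit genes the 3 strongest decreases were those of Mrpl14, Mrpl39 and Mrpl28. Mrpl14 encodes a counterpart of a conserved bacterial protein on the face toward the small subunit, where the assembly factor MALSU1 binds. Its signal was 10.32, 10.30, 10.27, 10.42 and 10.37 in the sham arrays and 9.67, 9.62, 9.34 and 9.50 in the TAC arrays. Every TAC array lay well below every sham array, and the difference was -0.80 ± 0.079 (SE, limma adjusted p = 5.61e-05), or 1.75-fold lower.

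Mrpl39 encodes a mitochondria-specific protein related to threonyl-tRNA synthetases that lies near the exit of the peptide tunnel. Sham arrays gave 12.62, 12.65, 12.69, 12.74 and 12.93 and TAC arrays 12.07, 11.9998, 11.93 and 12.10, with no overlap. It fell by 0.70 ± 0.077 (SE, adjusted p = 0.000122), or 1.62-fold. Its other probe set gave -0.79 ± 0.064 (adjusted p = 1.82e-05 over 34945 probe sets).

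Mrpl28, whose product has a bacterial counterpart, gave 11.72, 11.49, 11.64, 11.76 and 11.80 in the sham arrays and 11.23, 11.11, 10.98 and 11.47 in the TAC arrays. The highest TAC array, replicate 4, came close to the lowest sham array, replicate 2, and the difference was -0.48 ± 0.11 (adjusted p = 0.0071). Both other probe sets of the gene fell too, by 0.42 and 0.27, although the dimmer of them had a mean signal of only 4.68.

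Mrpl37, a mitochondria-specific large subunit protein, stood at 10.18, 10.02, 10.13, 10.30 and 10.37 in the sham and 9.78, 9.67, 9.63 and 9.97 in the TAC arrays. TAC replicate 4 was the highest of its group and still below sham replicate 2, and the gene fell by 0.44 ± 0.10 (adjusted p = 0.00707). Mrpl4, the counterpart of a bacterial protein that reaches into the peptide tunnel, stood at 10.60, 10.23, 10.44, 10.52 and 10.62 in the sham and 10.07, 9.98, 9.93 and 10.29 in the TAC arrays. Here the groups overlapped, since TAC replicate 4 lay above sham replicate 2, and the difference was -0.42 ± 0.10 (adjusted p = 0.0129).

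At the polypeptide exit tunnel the nascent chain leaves toward the inner membrane. Here 5 of 8 listed genes fell (62.5%) and 3 were not called, with a median of -0.31. Of all 76 members 44.7% were lower, and of all genes tested 12.3%. The lists by place in the ribosome hold few genes and were not tested against either share. Mrpl45, which anchors the ribosome at the inner membrane, was at 9.75, 9.60, 9.75, 9.78 and 9.70 in the sham and 9.23, 9.27, 9.31 and 9.32 in the TAC arrays. The groups lay clearly apart, with a difference of -0.44 ± 0.061 (adjusted p = 0.000563). Mrpl47, a conserved protein at the tunnel's mouth, was at 12.40, 12.33, 12.41, 12.38 and 12.35 in the sham and 11.94, 11.98, 11.84 and 11.89 in the TAC arrays. The sham values were tight (SD 0.036), no TAC value reached them, and the difference was -0.46 ± 0.058 (adjusted p = 0.000272). A second Mrpl47 probe set, with a mean signal of 7.95, fell by 0.52, and the dimmest, with a mean of 5.28, was at 0.01 and not called.

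The other tunnel genes were mixed. Mrpl23 fell by 0.33 (adjusted p = 0.00266) and Mrpl22 by 0.28 (adjusted p = 0.00576), both with bacterial counterparts around the tunnel exit. Mrpl44, a protein with a ribonuclease III fold, was at -0.10 (adjusted p = 0.295) and Mrpl24 at -0.07 (adjusted p = 0.415), with overlapping groups. Mrpl17 was at -0.01 (95% confidence interval -0.17 to 0.14), and its sign turned under cyclic loess (0.02) and with the mean of its probe sets (0.04).

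The central protuberance is the crest of the large subunit, which in mitochondria holds a transfer RNA in place of the bacterial 5S ribosomal RNA. In it 4 of 8 listed genes fell (50%), with a median of -0.22, beside 44.7% of all members and 12.3% of all genes. Mrpl46, a mitochondria-specific protein there, was at 10.72, 10.47, 10.76, 10.86 and 11.03 in the sham and 10.42, 10.30, 10.24 and 10.50 in the TAC arrays. TAC replicate 4 lay above sham replicate 2, so the groups overlapped, and the difference was -0.40 ± 0.11 (adjusted p = 0.0215). Its adjusted p rose to 0.0699 without TAC replicate 3, and the gene was called in 6 of the 9 fits that left out 1 array.

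Mrpl58, a peptidyl-tRNA hydrolase that has become part of the ribosome, fell by 0.33 (adjusted p = 0.00968), although the mean of its probe sets, -0.13, was not called. Mrpl55 fell by 0.28 (adjusted p = 0.0361), with an adjusted p of 0.111 without TAC replicate 3 and a call in 2 of the 9 fits that left out 1 array. Mrpl18, which has a bacterial counterpart that binds the 5S RNA, was at -0.16 (adjusted p = 0.0794), Mrpl27 at -0.15 (adjusted p = 0.0872) and Mrpl48 at -0.11 (adjusted p = 0.311). Mrpl40 stood apart in sign, with 10.12, 10.19, 10.29, 10.27 and 10.29 in the sham and 10.45, 10.33, 10.32 and 10.35 in the TAC arrays. Every TAC array was above every sham array, though barely, and the difference of 0.13 ± 0.064 missed the threshold (adjusted p = 0.171).

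The stalk and its base bring the translation factors to the ribosome, and 4 of their 5 listed genes were measured. These 4 were not called (limma), beside 44.7% of all members and 12.3% of all genes called lower. Of the 4, 0 had an unadjusted p below 0.05. The remaining listed gene, Mrpl53, was read only by a probe set shared with Ccdc142 (difference 0.19, no test made). Mrpl12, the counterpart of the bacterial stalk protein that has also been described as a partner of the mitochondrial RNA polymerase, was at 12.64, 12.42, 12.62, 12.78 and 12.83 in the sham and 12.54, 12.44, 12.23 and 12.62 in the TAC arrays. The groups overlapped, and the difference was -0.20 (95% confidence interval -0.43 to 0.034, adjusted p = 0.206). Mrpl10, which anchors the stalk, was at -0.17 (adjusted p = 0.154), Mrpl11 at -0.06 (adjusted p = 0.526) and Mrpl54 at 0.02 (adjusted p = 0.927). The sign of Mrpl54 turned under 4 kinds of alternative, among them centring each array on its median (-0.03), so no direction is given for it.

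Large subunit genes outside these places also fell, and those in this paragraph were named after their values were seen. Mrpl49, a mitochondria-specific protein, gave 10.52, 10.35, 10.56, 10.67 and 10.71 in the sham and 10.23, 10.15, 10.21 and 10.21 in the TAC arrays. The TAC arrays were nearly level and all below sham replicate 2, the lowest sham array, and the gene fell by 0.36 ± 0.079 (adjusted p = 0.00744). Its second probe set, with a mean signal of 9.60, did not show this decrease and was at 0.02 (adjusted p = 0.88 over all probe sets). Mrpl36, the counterpart of the smallest bacterial large subunit protein, gave 10.66, 10.46, 10.59, 10.69 and 10.52 in the sham and 10.23, 10.32, 10.17 and 10.26 in the TAC arrays, which did not overlap, and fell by 0.34 ± 0.069 (adjusted p = 0.00502). Mrpl1, whose bacterial counterpart sits at the side where spent transfer RNAs leave, gave 11.36, 11.32, 11.42, 11.35 and 11.29 in the sham and 11.09, 10.96, 11.04 and 11.02 in the TAC arrays. Its groups did not overlap either, with a decrease of 0.32 ± 0.058 (adjusted p = 0.00263) and of 0.32 by a second probe set, while the dimmest one was at 0.03 and not called. Mrpl2 (-0.33), Mrpl34 (-0.25) and Mrpl3 (-0.23) also fell, and the groups of Mrpl3 overlapped.

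Among small subunit genes the lowest difference was that of Mrps35, a mitochondria-specific protein. Its signal was 11.82, 11.63, 11.73, 11.90 and 11.98 in the sham arrays and 11.09, 11.04, 11.01 and 11.28 in the TAC arrays. No TAC array came near the sham range, and the difference was -0.71 ± 0.088 (adjusted p = 0.000274), or 1.63-fold lower. Mrps11, which has a bacterial counterpart on the platform of the small subunit, was at 10.35, 10.16, 10.22, 10.37 and 10.13 in the sham and 9.85, 9.88, 9.67 and 9.81 in the TAC arrays, with no overlap. It fell by 0.45 ± 0.076 (adjusted p = 0.00181), close to its promoter partner Mrpl46.

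Mrps21, the counterpart of a small bacterial protein, was at 12.60, 12.40, 12.56, 12.59 and 12.59 in the sham and 12.18, 12.12, 12.04 and 12.18 in the TAC arrays. Sham replicate 2 lay below the other 4 sham arrays but above all TAC arrays, and the gene fell by 0.42 ± 0.067 (adjusted p = 0.00121). Apart from genes of the messenger RNA channel, the other Mrps genes that fell were Mrps36, Mrps31, Mrps15, Mrps28, Mrps9, Mrps18a, Mrps22, Mrps14, Mrps33 and Mrps30, between -0.40 and -0.26. Mrps36 fell by 0.40 (adjusted p = 0.00225). Of the 3 relatives of one bacterial protein that share a number, Mrps18a fell (-0.31, adjusted p = 0.0094), Mrps18c was at -0.16 (adjusted p = 0.101) and Mrps18b at 0.16 (adjusted p = 0.153).

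The TAC arrays lay close together in Mrps28, Mrps31 and Mrps22 (SD 0.019, 0.034 and 0.028). They lay further apart in Mrps9 and Mrps15 (SD 0.11 and 0.12). Mrps28 gave 12.62, 12.54, 12.62, 12.70 and 12.64 in the sham and 12.23, 12.25, 12.25 and 12.28 in the TAC arrays, whose SD was 0.019. The groups stood well apart, and the gene fell by 0.37 ± 0.057 (adjusted p = 0.000921). The mitochondria-specific Mrps31 gave 11.75, 11.79, 11.68, 11.69 and 11.56 in the sham and 11.27, 11.29, 11.30 and 11.35 in the TAC arrays. Mrps22, also mitochondria-specific, gave 10.39, 10.34, 10.43, 10.43 and 10.52 in the sham and 10.12, 10.16, 10.10 and 10.15 in the TAC arrays. Neither gene's groups overlapped, with decreases of 0.39 (adjusted p = 0.00146) and 0.29 (adjusted p = 0.00497). Mrps9, which has a bacterial counterpart, fell by 0.35 (adjusted p = 0.0108), and 2 of its other probe sets fell as well, by 0.29 and 0.34, while the dimmest was at -0.29 and not called. Mrps15 gave 12.11, 11.86, 12.08, 12.14 and 12.32 in the sham and 11.72, 11.66, 11.59 and 11.87 in the TAC arrays. Sham replicate 2 lay just below TAC replicate 4, so the groups overlapped, and it fell by 0.39 ± 0.10 (adjusted p = 0.0137), with -0.36 from a second probe set, while the dimmest, with a mean signal of 6.34, was at 0.18 and not called. Mrps28, Mrps31, Mrps22, Mrps9 and Mrps15 were named after their values were seen.

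Along the messenger RNA channel 2 of 5 listed genes fell (40%), beside 44.7% of all members and 12.3% of all genes. Mrps24, the counterpart of a protein at the channel's entry, was at 11.71, 11.38, 11.55, 11.68 and 11.90 in the sham and 11.24, 11.17, 11.11 and 11.32 in the TAC arrays. Sham replicate 2 was close to the highest TAC array, replicate 4, and the gene fell by 0.43 ± 0.10 (adjusted p = 0.00991), with -0.41 from its other probe set. Mrps5, also at the entry, fell by 0.28 (adjusted p = 0.0388) from the lowest signal of all members, a mean of 8.17, and was called in only 2 of the 9 fits that left out 1 array. Its 4 other probe sets, all dimmer, lay between -0.19 and -0.0038, and none was called. The decoding protein Mrps12 was at -0.11 (adjusted p = 0.25), Mrps7 at -0.15 (adjusted p = 0.257) and Mrps2 at -0.11 (adjusted p = 0.213), none of them called.

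The 42 genes that were not called included the 4 members with the brightest probe sets, although signals of different probe sets do not rank transcripts by amount. Mrpl51 was at -0.05 (95% confidence interval -0.18 to 0.069), Mrpl42 at -0.15 (-0.29 to -0.0025), Mrpl41 at -0.16 (-0.28 to -0.028) and Mrpl52 at 0.15 (-0.0024 to 0.30). All 4 encode mitochondria-specific proteins. Their intervals reach -0.29 at most, short of the decreases of the genes described first. In 6 uncalled genes, Mrps26, Mrpl18, Mrpl41, Mrpl27, Mrpl16 and Mrps2, all TAC arrays nevertheless lay below all sham arrays, with differences from -0.16 to -0.11. Conversely the groups of 5 called genes, Mrpl4, Mrpl46, Mrps15, Mrpl55 and Mrpl3, overlapped. Differences nearest 0 were those of Mrps34 (95% confidence interval -0.17 to 0.18), Mrps6 (-0.14 to 0.16) and Mrpl17, with lower bounds of the intervals between -0.17 and -0.14. Of the uncalled genes, the largest differences were those of Mrpl12, Mrps16 (-0.18, adjusted p = 0.0706), Mrpl21 (-0.17, adjusted p = 0.0874) and Mrpl33.

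Mrpl33, the counterpart of a very small bacterial protein, had the highest difference of all 76 genes. Its signal was 12.01, 11.84, 11.90, 11.92 and 11.96 in the sham and 12.11, 12.03, 12.11 and 12.13 in the TAC arrays. All 4 TAC arrays lay above all 5 sham arrays, though the nearest arrays lay close, and the difference of 0.17 ± 0.059 missed the threshold (adjusted p = 0.0626). It passed with only the genes brighter than the median gene (adjusted p = 0.0208), with robust fitting of a variance trended on signal (0.0146), with array weights (0.0417) and after cyclic loess (0.0294).

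Other probe sets mostly moved with the brightest one. Of the 80 other probe sets 61 had the sign of the brightest, and 15 were called (12 lower, 3 higher), where 20.8% of all probe sets tested were called and 9.78% lower. Adjusted p-values of these other probe sets are over all 34945 probe sets tested. Among the 53 brighter than the median probe set, 43 had the same sign and 14 were called. Of the 15 called, 14 had the sign of the brightest probe set of their gene.

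**Figure D3:**
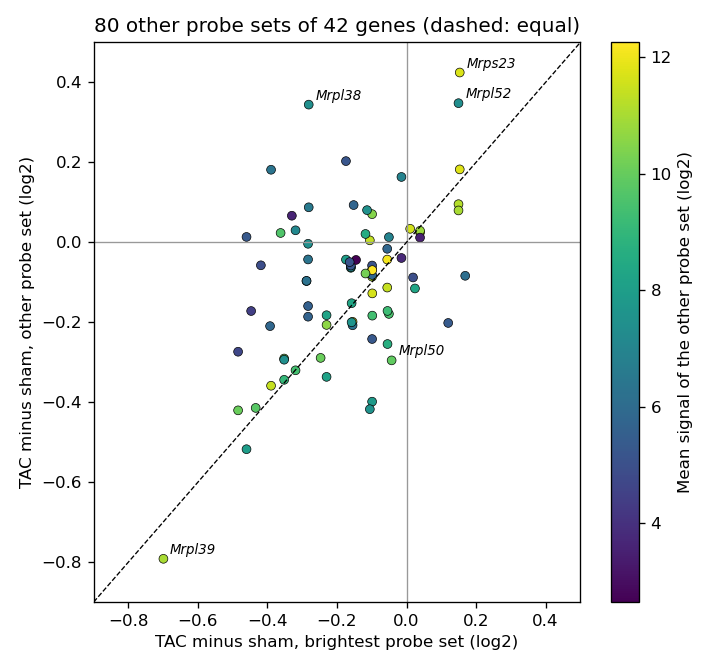
TAC minus sham difference (log2) of each of the 80 other probe sets against that of the brightest probe set of its gene, for 42 genes, coloured by the mean signal of the other probe set (log2), with a dashed line of equality. Mrpl39 lies near the line (-0.79 against -0.70), Mrps23 above it (0.42 against 0.15), and the dim probe set of Mrpl38 (mean signal 7.41) lies at 0.34 against -0.28.

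Mrpl38 was the exception. Its brightest probe set gave 9.82, 9.61, 9.71, 9.92 and 9.89 in the sham and 9.55, 9.54, 9.38 and 9.56 in the TAC arrays, a decrease of 0.28 (adjusted p = 0.0277). A probe set with a mean signal of 7.41 gave 7.35, 7.35, 7.14, 7.31 and 7.15 in the sham and 7.69, 7.51, 7.59 and 7.63 in the TAC arrays, an increase of 0.34 (adjusted p = 0.00871), and the groups did not overlap in either. Mrpl38 was called by its brightest probe set in only 3 of the 9 fits that left out 1 array, so its transcripts have no single direction here.

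Mrps23 is a mitochondria-specific small subunit protein that had 3 probe sets with a positive difference. Its brightest gave 12.34, 12.32, 12.42, 12.48 and 12.36 in the sham and 12.47, 12.49, 12.55 and 12.64 in the TAC arrays, which overlapped (0.15, adjusted p = 0.113). Another gave 11.66, 11.56, 11.62, 11.51 and 11.18 in the sham and 12.04, 11.91, 11.95 and 11.84 in the TAC arrays, which did not overlap (0.42, adjusted p = 0.0128). For Mrpl52 a dim probe set also rose (0.35, adjusted p = 0.0396), while for Mrpl50 and Mrpl48 a dimmer probe set fell (by 0.30, adjusted p = 0.0478, and by 0.42, adjusted p = 0.00267) where the brightest was not called (-0.04 and -0.11).

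Some probe sets carry the symbols of several genes. Mrpl30 and Mrpl53, outside the rule, were read only by probe sets that also carry the symbols Gm6238 and Ccdc142. The brighter Mrpl30 set was at 13.24 to 13.38 in the sham and 13.23 to 13.32 in the TAC arrays, and the Mrpl53 set at 10.9955 to 11.1843 in the sham and 11.21 to 11.35 in the TAC arrays, which did not overlap, with no test made. A set carrying both Mrps34 and Nme3, not used for Mrps34, was at 8.88 to 9.13 in the sham and 8.78 to 9.01 in the TAC arrays, which overlapped, with a difference of -0.12 and no test made. RefSeq lists pseudogenes named after Mrpl23, Mrpl27, Mrpl48 and Mrps36, and whether their probes also read these was not tested.

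Of the 34 decreases, 28 were called in all 9 fits that left out 1 array. The exceptions were Mrpl46, Mrpl55, Mrps5, Mrpl38, Mrpl34 and Mrpl3. Without TAC replicate 3 the adjusted p of Mrpl34 rose to 0.0546 and that of Mrpl38 to 0.0894. That of Mrps5 rose to 0.0955 without TAC replicate 4, and that of Mrpl3 to 0.125 without TAC replicate 2.

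Other genes of mitochondrial translation were examined by the same fit, in which 12.3% of all genes were called lower and 12.8% higher. Of all genes with a mean signal between 9 and 10, 19% were lower, between 10 and 11, 21.9%, and between 11 and 12, 21.2%. The median signal was 9.55 in the translation factors, 9.69 in the assembly factors and 9.23 in the synthetases. It was 10.18 in the DNA and RNA genes and 11.66 in the ribosomal proteins with other names. Of 4 measured ribosomal proteins with other names 3 fell. These were Dap3, a GTP-binding small subunit protein (-0.35, adjusted p = 0.00225), Ptcd3, a pentatricopeptide repeat protein of the small subunit (-0.24, adjusted p = 0.0178), and Gadd45gip1 of the large subunit (-0.40, adjusted p = 0.0236). Chchd1 was at -0.09 (adjusted p = 0.306). Without TAC replicate 1 only 1 of these 4 was called.

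Of 15 translation factors 8 fell (53.3%) and 0 rose (limma), with a median of -0.24. At an unadjusted p below 0.05, 9 were lower and 0 higher. Metap1d, which removes the first methionine, fell by 0.65 (adjusted p = 0.000297), and Oxa1l, which inserts new chains into the inner membrane, by 0.37 (adjusted p = 0.00207). The release factor Mtrf1l fell by 0.35 (adjusted p = 0.00471), and the elongation factor Tufm by 0.33 (adjusted p = 0.0108). Of 29 assembly factors and ribosomal RNA modifying enzymes 15 fell (51.7%) and 0 rose, with a median of -0.22. At an unadjusted p below 0.05, 17 were lower and 1 higher. Examples were Eral1, a GTPase of small subunit assembly (-0.58, adjusted p = 0.000295), Mrm1, a ribosomal RNA methyltransferase (-0.56, adjusted p = 0.000891), Mtg2, a GTPase of large subunit assembly (-0.54, adjusted p = 0.00122), and Spg7, a subunit of the protease that matures the product of Mrpl32 (-0.44, adjusted p = 0.00107). The 1 gene of this list higher at the unadjusted threshold was Afg3l2, with all TAC arrays above all sham arrays (0.20, limma adjusted p = 0.0552, not called). The assembly count was 9 without TAC replicate 3.

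Genes that handle mitochondrial DNA and RNA fell in 9 of 25 (36%) and rose in 1 (4%), with a median of -0.21. Over all genes 12.3% were lower and 12.8% higher. Hsd17b10, a subunit of mitochondrial ribonuclease P, fell by 0.54 (adjusted p = 0.000266), Lrpprc, which stabilises mitochondrial messenger RNAs, by 0.46 (adjusted p = 0.000601), Fastk by 0.50 (adjusted p = 0.000824) and Fastkd1 by 0.52 (adjusted p = 0.000862). Trnt1, which adds the CCA end to transfer RNAs, rose by 0.24 (adjusted p = 0.0393). Tfam, the packaging and transcription factor of mitochondrial DNA, was at -0.15 (adjusted p = 0.191, a gene named after its value was seen). The count of decreases was 14 without sham replicate 2.

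Of 21 genes for mitochondrial aminoacyl-tRNA synthetases and the related amidotransferase, 8 fell (38.1%) and 0 rose, with a median of -0.26. Over all genes 12.3% were lower and 12.8% higher. At an unadjusted p below 0.05, 12 of the 21 were lower and 1 higher. Hars2 fell by 0.37 (adjusted p = 0.00246) and Cars2 by 0.52 (adjusted p = 0.0065), and of the amidotransferase subunits Qrsl1 fell by 0.42 (adjusted p = 0.00384) and Gatb by 0.55 (adjusted p = 0.00517). The count was 5 without TAC replicate 1 and 5 without TAC replicate 2.

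**Figure D4:**
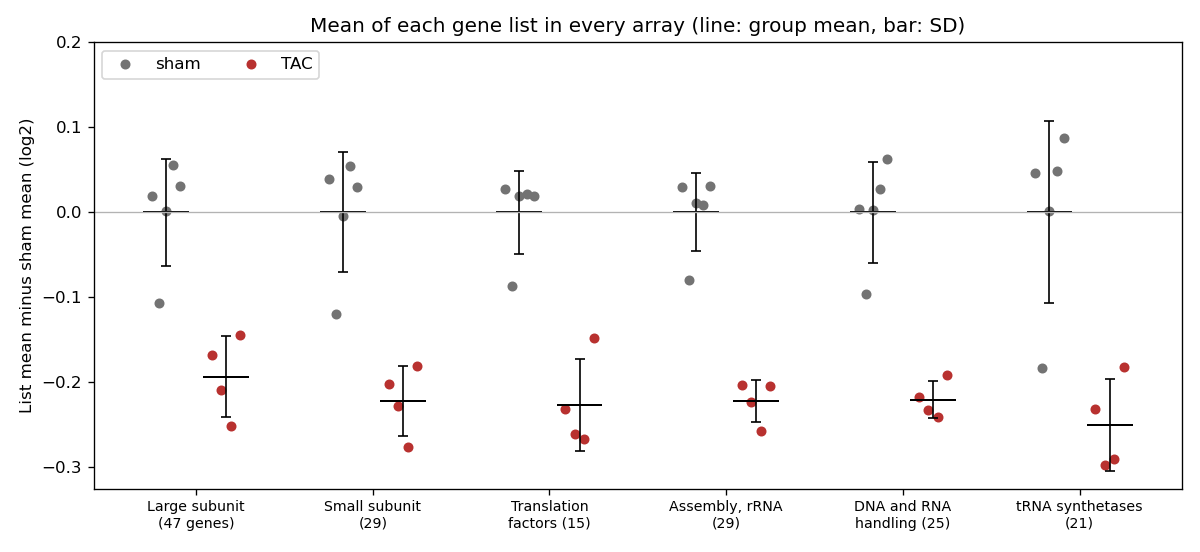
Mean of each gene list in every array minus the list's sham mean (log2), with 1 point per array, a line for the group mean and bars for the SD (5 sham, 4 TAC arrays). In the large and small subunit lists as in all lists but the synthetases, every TAC array lies below every sham array. The low sham point of each list is replicate 2, which in the synthetases (9.10) lies level with the highest TAC array (9.10).

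Beside these, 2 lists were drawn up by symbol after the data were seen. Of 79 respiratory chain and ATP synthase subunits encoded in the nucleus 30 fell (38%) and 0 rose, with a median of -0.15. Over all genes 12.3% were lower and 12.8% higher. Among genes with a mean signal above 13 these shares were 18% and 10.3%, and the median signal of the 79 subunits was 13.54. At an unadjusted p below 0.05 (limma), 44 of the 79 were lower and 0 higher. The only mitochondrially encoded gene measured, ND5, was at 0.00 (adjusted p = 0.995). Of 49 cytosolic ribosomal protein genes 2 fell (4.08%), Rpl3l (-1.20) and Rps4l (-0.46), and 3 rose (6.12%), Rpl12 (0.96), Rps25 (0.50) and Rpl14 (0.34), all named after their values were seen, with a median of 0.06. In 12 of the 49 genes all TAC arrays lay above all sham arrays and in 2 below, against 13% and 12.2% of all genes. The list mean was 12.04 to 12.10 in the sham and 12.12 to 12.13 in the TAC arrays, without overlap. The mitochondrial list, with a median of -0.16, and the cytosolic list were not tested against each other.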

How the data were processed

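Left ventricular RNA of mice was hybridised to Affymetrix mouse arrays, 5 of the sham and 4 of the TAC group. The log2 values deposited by the authors are RMA summaries, as named without a version in the submitters' processing notes; the genome build behind the probe annotation is not given here. The arrays carry no count of reads, so their number limits the precision. Of 45101 probe sets, 34945 had 1 gene symbol in the platform annotation, 932 had several and 9160 were not listed; controls were left out. Genes were fitted in limma 3.58.1 (R 4.3.3; lmFit and eBayes, TAC minus sham, two-sided, 7 residual degrees of freedom), with Benjamini-Hochberg adjustment over 18193 genes, or over all probe sets for single ones. Groups came from the treatment label, with no batch or pairing given; nothing states that each array is a separate mouse, and the p-values thus reflect only the spread among these arrays, which may be technical. Figures used Python 3.11.15 and matplotlib 3.10.9. The fit was tested on simulated data with 50 genes changed by each of several amounts (log2). It called 3 of 50 at 0.25, 26 of 50 at 0.5, 45 of 50 at 1 and 44 of 50 at -1, with 5 false calls. Far fewer genes changed there than were called here, so these shares may differ from those in the data.

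The members, the gene lists and the motifs were chosen with earlier results of these data known. By rule the text names the 12 largest decreases among called members, the 4 brightest, the 4 largest uncalled, members with opposed called probe sets, those with a listed place in the ribosome, and up to 4 called genes with the smallest p of each other list. Further named genes complete a count or were chosen after their values were seen. Listed genes without a probe set of their own were not analysed here. The alternatives tried were averaging each gene's probe sets, the brightest below 13, genes brighter than the median, a trended robust variance, array weights, median centring, cyclic loess, adjusted p below 0.01, a 1.5-fold threshold, subunits by place, and leaving out arrays.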

Additional observations from a re-analysis of the deposited data

Results flagged for a closer look

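Among 94 sets of values examined (each named gene and list mean in each group), 5 held 1 array far from the others of its group; chance gives about 1 in 20. In Mrpl38, TAC replicate 3 was at 9.38, below the next lowest TAC value of 9.54. In Mrps2, TAC replicate 2 was at 10.51, above the next highest of 10.47. In Mrps21, sham replicate 2 was at 12.40, below the next lowest sham value of 12.56. The mean of the translation factors was 9.83 in sham replicate 2, against 9.94 in the next lowest sham array. The mean of the assembly factors was 9.73 in sham replicate 2, against 9.82 in the next lowest.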

How the results depend on the processing

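The members' median of -0.16 stayed below 0 under every alternative run, with 28 to 47 genes called lower below an adjusted p of 0.05 and member medians from -0.14 (cyclic loess) to -0.22 (median centring). Below an adjusted p of 0.01, 22 members, 12 large subunit genes, 1 ribosomal protein of another name, 3 translation factors, 7 assembly factors and 4 synthetases were lower; beyond 1.5-fold each of these lists had 0, the small subunit and the DNA and RNA list too. Members called higher numbered 1 with the mean of probe sets (Mrps23), 2 with genes brighter than the median (Mrps23, Mrpl33), 3 with a trended variance and robust fitting (Mrpl52, Mrps23, Mrpl33), 1 with array weights and 1 after cyclic loess (both Mrpl33). The small subunit median was -0.17 with the mean of probe sets, -0.18 by place and -0.17 by place without Mrps36, the last chosen after the data were seen. Array weights gave 16 lower genes of the DNA and RNA list and 15 synthetases; median centring, which put the median of all genes at -0.05 and the shares of all genes at 16% lower and 10.9% higher, gave 14 and 13. Leaving out each array in turn gave 28 to 39 lower members, 14 to 22 large and 14 to 17 small subunit genes, 1 to 3 ribosomal proteins of other names, 7 to 10 translation factors, 9 to 15 assembly factors, 8 to 14 DNA and RNA genes and 5 to 12 synthetases. Of the called members named, Mrpl38 alone changed sign, to 0.0502 with the mean of its probe sets. Mrpl54 turned to -0.0346 with the mean of probe sets, -0.0614 with array weights and -0.0321 with centring, and lay between -0.0553 and 0.0896 over the arrays left out. Mrpl17 turned to 0.0365 with the mean of probe sets and 0.0165 after loess, and lay between -0.0538 and 0.0151 with arrays left out. The cause of these shifts was not tested. No paired analysis was possible because the labels give no replicate numbers shared between the groups. With 9 arrays, changes of the size seen in the uncalled genes may be missed.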
